A study of Mus musculus with 24 samples.

Results

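The mRNAs of 10 genes that carry the LPS signal from the cell surface to the first kinases were followed in bone marrow-derived macrophages (BMDMs) from wild-type (WT) and Irg1-/- mice. The genes were Tlr4, Cd14 and Ly96 of the receptor complex, the adaptors Myd88, Tirap, Ticam1 and Ticam2, and Irak2, Irak4 and Traf6, which act directly below the adaptors. They were taken by name, by matching the Ensembl identifiers of the deposited table (version removed) to the symbols of GENCODE M21, and each matched 1 row, so 10 of the 22165 genes of the table are described. All 10 had enough counts to be tested, among 11878 genes that did.

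Irg1 (Acod1) encodes the enzyme that makes itaconate in activated macrophages, and the study asked how its loss alters LPS-induced tolerance. WT mice were C57BL/6N and the Irg1-/- mice carried the knockout in every cell on the same background, with donors 8 to 20 weeks old. Bone marrow was cultured for 7 days with 20 ng/ml M-CSF. BMDMs were then left untreated and harvested (Unstim.), harvested after 24 h of 100 ng/ml LPS (LPS 24h), or given LPS for 24 h, fresh medium, 1 h of rest and LPS again for 3 h (LPS 24h->LPS 3h, tolerized). The non-tolerized group (LPS 3h) went through the tolerized protocol with a mock first step. It therefore differs from Unstim. and from LPS 24h in handling as well as in LPS. The tolerized group likewise differs from LPS 24h in the fresh medium, the rest and the later harvest as well as in the second LPS. No group took these steps after 24 h of LPS without the second LPS, so restimulation below stands for all of them together. Each of the 8 groups held 3 cultures, which makes 24 libraries.

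Libraries were made from the 3' ends of polyadenylated RNA, and levels are given as normalized CPM, that is counts per library size as scaled by edgeR's TMM factors. Such levels are compared between groups for 1 gene and not between genes. Each library held 3927378 to 20430359 counts on genes (median 11539056), so that 3 counts were worth 0.127 to 0.565 normalized CPM, and since PCR copies were not told apart these limits cover counting error only. Acod1 averaged 4536 to 22181 normalized CPM in the WT LPS groups and 8.75 to 14.0 in the Irg1-/- LPS groups. In Unstim. it was 8.42 in WT and 9.77 in Irg1-/-, which does not tell the genotypes apart. All 6 macrophage markers (Adgre1, Csf1r, Cd68, Mertk, Fcgr1, Itgam) were detected, with sums of 1671 to 3802 normalized CPM per library. The summed level of 6 neutrophil markers was 59.0 to 79.2 normalized CPM in Unstim., 36.6 to 59.1 after LPS 3h and 1.05 to 3.77 in the LPS 24h and the tolerized groups. It thus moved with the first LPS step, and its part in the results was not tested. After LPS 3h the markers in this sum did not move alike. Mean Camp rose from 11.8 to 18.9 in WT and from 8.92 to 15.3 in Irg1-/- cells. Mean Retnlg fell from 15.9 to 3.98 and from 21.3 to 2.98, and mean Ltf from 41.0 to 24.0 and from 38.4 to 25.5. Ly6g, Mpo and Elane were near the floor. The summed level of 3 fibroblast markers (Col1a1, Col3a1, Dcn) was 65.0 to 146 normalized CPM per library, with counts in every group. The sums of the dendritic cell, B cell, T cell and erythroid markers were at most 11.1. In bulk RNA, fewer cells of a type and less RNA per cell cannot be told apart. A prefix of the labels with 4 values, taken here as the library pool, put all Unstim. libraries in pool 4. In each LPS treatment the WT cultures were in pools 1, 2 and 4, whereas Irg1-/- LPS 3h libraries were in pools 2 and 3, LPS 24h libraries in pool 1 and tolerized libraries in pools 1 and 2. No pool therefore held Irg1-/- cells both unstimulated and treated with LPS, and none held Irg1-/- cells of both LPS 3h and LPS 24h. In these comparisons pool and treatment cannot be told apart without a model.

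LPS is drawn from bacterial membranes by LPS-binding protein, handed to CD14 and loaded onto MD-2 (the product of Ly96), which holds it in the ectodomain of TLR4. Dimerized TLR4 recruits the sorting adaptor TIRAP and then MyD88, which assembles IRAK4 and IRAK2 and engages the ubiquitin ligase TRAF6, leading to NF-kB and MAP kinase activation. From endosomes, TLR4 signals instead through TRAM (Ticam2) and TRIF (Ticam1) to TBK1 and type I interferon. Macrophages that have met LPS once respond less to a further dose for many inflammatory genes, a state known as LPS tolerance.

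After LPS 3h, Cd14, Myd88 and Irak2 rose 4.61-fold to 9.09-fold and Tlr4 fell in both genotypes. With 1 culture left out, the Irg1-/- call of Tlr4 held in 3 of 6 fits, and it was lost with the pool as a term. After LPS 24h neither Cd14 nor Irak2 differed from Unstim. past the threshold, although every WT culture then held more Irak2 than every unstimulated one (0.66 on the log2 scale, 95% interval 0.12 to 1.20), and Myd88 was the only member to pass in both genotypes. Both of these Myd88 calls were lost with the pool as a term, and each held in 5 of 6 fits with 1 culture left out. In tolerized cells, a further 3 h of LPS left Cd14, Myd88 and Irak2 below their level after LPS 3h. Ticam1 and Ticam2, the adaptors of the endosomal arm, were above it. Here the Cd14 and Ticam1 calls in both genotypes and the WT Myd88 call were lost in some fits with 1 culture left out. With the pool as a term, the Irg1-/- calls of Cd14, Myd88 and Ticam1 were lost, as given below. No member differed between WT and Irg1-/- cells in any of the 4 treatments at an adjusted p under 0.05 from edgeR's quasi-likelihood test, which is the test behind every adjusted p given here unless another is named.

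For LPS 3h against Unstim., 5 of 10 members passed in WT cells, where 32.0% of all genes tested did. Of these, 3 were higher, as were 15.8% of all genes, and 2 were lower, as were 16.3%. In Irg1-/- cells 5 of 10 passed, against 35.9% of all genes, 3 of them higher (17.0% of all genes) and 2 lower (18.9%). For LPS 24h against Unstim. the counts were 2 in WT, both higher, where 16.2% of all genes passed and 9.25% were higher, and 1 in Irg1-/-, also higher, where 13.7% passed and 7.31% were higher. From LPS 3h to LPS 24h, 7 members changed in WT, against 32.3% of all genes, 3 of them higher (16.8% of all genes) and 4 lower (15.5%). In Irg1-/- the number was 5, against 35.0%, with 2 higher (18.2%) and 3 lower (16.9%).

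Restimulation of cells that had received LPS for 24 h (LPS 24h->LPS 3h against LPS 24h) raised 2 members in WT, where 3.99% of all genes changed and 2.46% rose. In Irg1-/- it raised 3 members, where 5.14% of all genes changed and 3.44% rose. Between tolerized and non-tolerized cells (LPS 24h->LPS 3h against LPS 3h), 5 members differed in WT, against 25.5% of all genes, 2 of them higher (12.4% of all genes) and 3 lower (13.1%). In Irg1-/- the number was 5, against 27.2%, with 2 higher (13.1%) and 3 lower (14.1%). The members were listed by role but with earlier results of these data known, and nothing particular to the list is read from these counts. Comparisons with the same group on one side share its 3 libraries and are not independent of each other.

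The median log2 fold change of the 10 members after LPS 3h was 0.33 in WT and 0.57 in Irg1-/-, beside -0.18 and -0.20 over all genes tested. For tolerized against non-tolerized cells the members' median was 0.21 and -0.28, beside 0.13 and 0.12 over all genes. With DESeq2's size factors in place of TMM, these medians over all genes became -0.10 and -0.14 after LPS 3h and 0.05 and 0.01 for the tolerized cells, and no called member changed direction under any scaling tried.

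**Figure D1:**
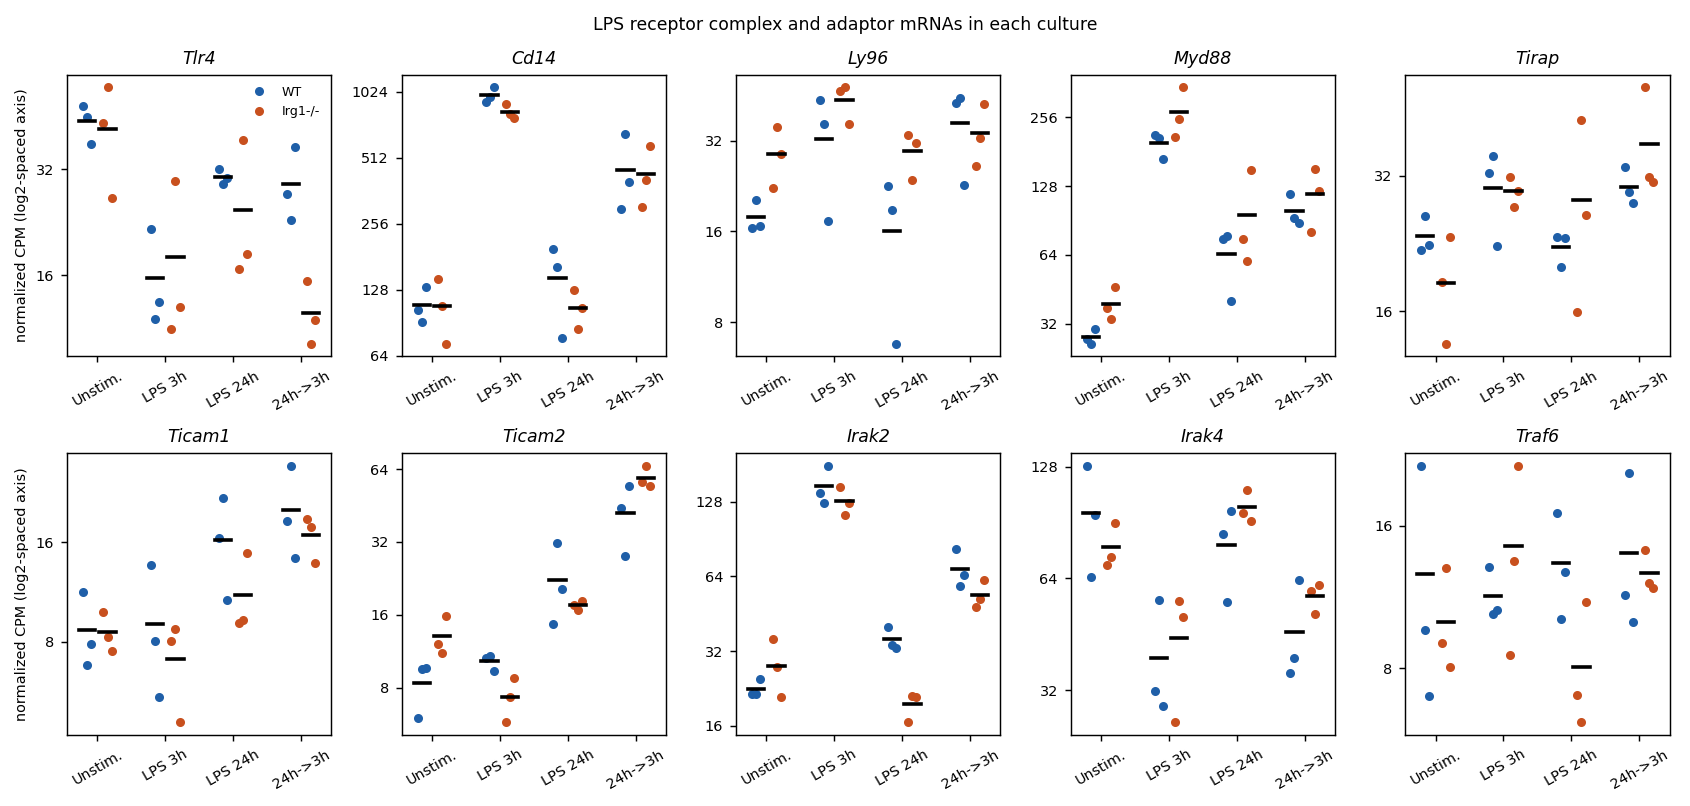
Normalized CPM of each of the 10 mRNAs (log2-spaced vertical axis, one panel per gene, scales differ) in every culture by treatment, with WT in blue and Irg1-/- in orange; points are single cultures and black bars are means of 3 cultures, and 24h->3h stands for LPS 24h->LPS 3h. Cd14, Myd88 and Irak2 peak after LPS 3h, Tlr4 and Irak4 are at their lowest mean after LPS 3h in WT cells, and Ticam2 is highest in tolerized cells.

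**Figure D2:**
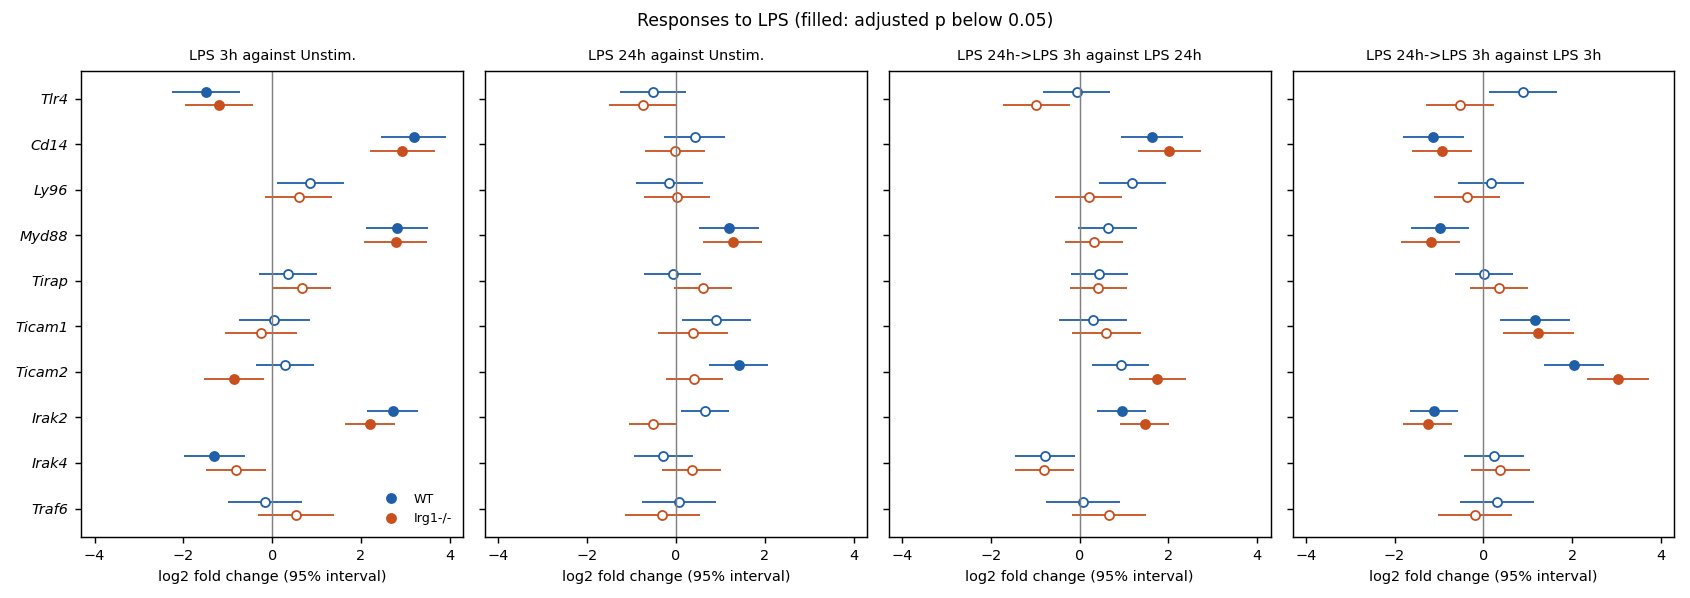
log2 fold changes (horizontal axis) with 95% intervals for the 10 members (rows) in 4 comparisons (panels), WT in blue and Irg1-/- in orange, filled where the adjusted p is below 0.05. After LPS 3h the filled points of Cd14, Myd88 and Irak2 lie at 2.21 to 3.18, and for tolerized against non-tolerized cells they lie below 0 while those of Ticam1 and Ticam2 lie at 1.16 to 3.02.

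Tlr4 (ENSMUSG00000039005.13, chromosome 4, 66827584 to 66930284, plus strand), coordinates here and below in GRCm38, encodes the signalling receptor itself. In the 3 WT cultures Tlr4 was at 48.5, 45.0 and 37.8 in Unstim., 21.7, 12.0 and 13.4 after LPS 3h, 32.1, 29.0 and 30.3 after LPS 24h and 27.2, 23.0 and 36.9 in the tolerized group normalized CPM. In the Irg1-/- cultures it was at 43.3, 54.7 and 26.6 in Unstim., 11.2, 29.7 and 13.0 after LPS 3h, 18.3, 16.6 and 38.7 after LPS 24h and 11.9, 10.2 and 15.4 in the tolerized group. In WT cells every culture after LPS 3h was below every unstimulated one, and those after LPS 24h lay between the LPS 3h and Unstim. cultures without overlap. In Irg1-/- cells 1 culture after LPS 3h (29.7) and 1 after LPS 24h (38.7) reached into the unstimulated range. Tlr4 was 2.80-fold lower after LPS 3h in WT (log2 fold change -1.49, standard error 0.38, adjusted p = 0.00265) and 2.31-fold lower in Irg1-/- (log2 fold change -1.21, standard error 0.38, adjusted p = 0.0127). The call in Irg1-/- cells was lost without LPS 3h culture 1 (-0.90) or 3 (-0.97) or Unstim. culture 2 (-0.90), and with the pool as a term (-1.61, adjusted p = 0.0819). In pool 4, which held 1 WT LPS 3h library and all WT Unstim. libraries, the difference was -1.69. From LPS 3h to LPS 24h Tlr4 rose in WT cells by 0.96 (standard error 0.38, adjusted p = 0.0481), with 0.56, 1.27 and 1.17 in pools 1, 2 and 4, but this call held in only 2 of 8 alternative analyses and in 1 of 6 leave-one-out fits. It was lost without LPS 24h culture 1 (0.88), 2 (0.93) or 3 (0.87) or LPS 3h culture 2 (0.73) or 3 (0.79). In Irg1-/- cells the same difference was 0.46 (standard error 0.37, adjusted p = 0.354).

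Cd14 (ENSMUSG00000051439.7, chromosome 18, 36725067 to 36726798, minus strand) encodes the co-receptor that passes LPS to the TLR4 complex. It was the member with the largest rise after LPS 3h in both genotypes. Cd14 was at 103, 91.2 and 132 in Unstim., 922, 970.3 and 1071 after LPS 3h, 196, 163 and 76.9 after LPS 24h and 299, 659 and 397 in the tolerized group normalized CPM in WT cultures. In Irg1-/- cultures the values were 143, 108 and 72.8 in Unstim., 895, 806 and 777 after LPS 3h, 105, 128 and 85.0 after LPS 24h and 579.7, 407 and 305 in the tolerized group. In both genotypes the LPS 3h cultures were highest, the tolerized cultures came next and the LPS 24h cultures were lowest among those given LPS, with no overlap between these 3 groups, and the LPS 24h values spanned or overlapped those of Unstim. Cd14 rose 9.09-fold after LPS 3h in WT (log2 fold change 3.18, standard error 0.36, adjusted p = 1.83e-08) and 7.65-fold in Irg1-/- (log2 fold change 2.94, standard error 0.36, adjusted p = 7.48e-08). By LPS 24h it was 0.42 from Unstim. in WT on the log2 scale (95% interval -0.26 to 1.10) and -0.026 in Irg1-/- (-0.70 to 0.65). Restimulation raised it 3.10-fold over LPS 24h in WT (log2 fold change 1.63, standard error 0.34, adjusted p = 0.00333) and 4.06-fold in Irg1-/- (log2 fold change 2.02, standard error 0.34, adjusted p = 0.000181). It then stayed 2.19-fold below LPS 3h in WT (log2 fold change -1.13, standard error 0.33, adjusted p = 0.0123) and 1.92-fold below it in Irg1-/- (log2 fold change -0.94, standard error 0.33, adjusted p = 0.0345). Within pools 1, 2 and 4 the WT restimulation difference was 0.60, 2.01 and 2.36 and the WT difference between tolerized and non-tolerized cells was -1.63, -0.56 and -1.43, while the 1 pair of Irg1-/- libraries in pool 2 gave -0.63 for the latter. The tolerized against non-tolerized call was lost in WT without LPS 24h->LPS 3h culture 1 (-0.95) and in Irg1-/- without LPS 24h->LPS 3h culture 3 (-0.76) or 2 (-0.93) or LPS 3h culture 1 (-0.91) or 2 (-0.99), or with the pool as a term (-0.81, adjusted p = 0.275). Fitted on those groups alone, the WT restimulation call was lost as well (1.63, adjusted p = 0.107).

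Ly96 (ENSMUSG00000025779.10, chromosome 1, 16688051 to 16709611, plus strand) encodes MD-2, the subunit that binds the lipid A part of LPS. It was at 16.4, 20.3 and 16.7 in Unstim., 43.6, 36.4 and 17.4 after LPS 3h, 22.6, 18.8 and 6.78 after LPS 24h and 42.5, 44.2 and 22.9 in the tolerized group normalized CPM in WT and 22.3, 35.6 and 29.0 in Unstim., 46.8, 48.1 and 36.4 after LPS 3h, 31.5, 33.4 and 23.6 after LPS 24h and 42.3, 32.7 and 26.4 in the tolerized group in Irg1-/- cultures. WT culture 3, from pool 4, was the lowest of its group in all 3 LPS treatments. Neither genotype reached the threshold after LPS 3h, with 0.86 (standard error 0.37, adjusted p = 0.0743) in WT and 0.60 (standard error 0.37, adjusted p = 0.217) in Irg1-/- on the log2 scale. Ly96 was 2.02-fold lower after LPS 24h than after LPS 3h in WT cells (log2 fold change -1.01, standard error 0.37, adjusted p = 0.0371), with -0.94, -0.95 and -1.33 in pools 1, 2 and 4, although the groups overlapped. The call was lost without LPS 3h culture 1 (-0.84) or 2 (-1.01) or LPS 24h culture 3 (-0.75), and when fitted on those groups alone (-1.02, adjusted p = 0.118). The Irg1-/- difference was -0.57 (standard error 0.37, adjusted p = 0.231). After restimulation the WT cultures were all above those of LPS 24h, at 1.19 (standard error 0.37, adjusted p = 0.0689), which missed the threshold.

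Myd88 (ENSMUSG00000032508.8, chromosome 9, 119335934 to 119341411, minus strand) encodes the adaptor through which most Toll-like receptors reach the IRAK kinases. It was at 27.6, 26.3 and 30.5 in Unstim., 214, 208 and 169 after LPS 3h, 75.5, 77.7 and 40.2 after LPS 24h and 118, 92.5 and 88.3 in the tolerized group normalized CPM in WT cultures. The 4 WT groups did not overlap, in the order Unstim., LPS 24h, tolerized and LPS 3h from lowest to highest. In Irg1-/- cultures Myd88 was at 37.4, 33.6 and 46.4 in Unstim., 210.4, 252 and 345 after LPS 3h, 149.8, 75.4 and 60.5 after LPS 24h and 122, 153 and 80.3 in the tolerized group, in the same order of means, with overlap between LPS 24h and the tolerized cells only. The rise after LPS 3h was 7.00-fold in WT (log2 fold change 2.81, standard error 0.34, adjusted p = 8.99e-08) and 6.86-fold in Irg1-/- (log2 fold change 2.78, standard error 0.34, adjusted p = 1.09e-07). After LPS 24h Myd88 exceeded Unstim. past the threshold in both genotypes, by 2.29-fold in WT (log2 fold change 1.20, standard error 0.33, adjusted p = 0.00972) and 2.43-fold in Irg1-/- (log2 fold change 1.28, standard error 0.33, adjusted p = 0.00625). With the pool as a term these last values were 0.82, adjusted p = 0.130, and 0.76, adjusted p = 0.282, and they also missed the threshold without WT LPS 24h culture 2 (1.0) and without Irg1-/- LPS 24h culture 1 (0.81). The Irg1-/- rise after LPS 3h was, in the model with a pool term, 1.96, adjusted p = 0.00588. The WT pool 4 difference was 2.58 after LPS 3h and 0.52 after LPS 24h.

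Restimulation moved Myd88 over LPS 24h by 0.63 (standard error 0.32, adjusted p = 0.328) in WT and 0.31 (standard error 0.32, adjusted p = 0.750) in Irg1-/- cells, neither past the threshold. Tolerized cells held 1.97-fold less Myd88 than non-tolerized cells in WT (log2 fold change -0.98, standard error 0.32, adjusted p = 0.0248) and 2.28-fold less in Irg1-/- (log2 fold change -1.19, standard error 0.33, adjusted p = 0.00661). Every tolerized culture was below every LPS 3h culture of its genotype. In pools 1, 2 and 4 the WT difference was -0.85, -1.17 and -0.93, and in pool 2 the Irg1-/- difference was -0.79. The WT call was lost without LPS 3h culture 1 (-0.96) or LPS 24h->LPS 3h culture 2 (-0.96) or 3 (-0.96), and the Irg1-/- call with the pool as a term (-0.87, adjusted p = 0.228).

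Irak2 (ENSMUSG00000060477.14, chromosome 6, 113638467 to 113695026, plus strand) encodes the IRAK family member that sustains signalling at the MyD88 complex. It was at 21.5, 21.5 and 24.8 in Unstim., 139, 127 and 179 after LPS 3h, 40.2, 34.0 and 33.0 after LPS 24h and 82.5, 58.8 and 65.0 in the tolerized group normalized CPM in WT cultures, which ordered the 4 groups like those of Myd88, again without overlap. In Irg1-/- cultures Irak2 was at 35.7, 27.5 and 20.9 in Unstim., 147, 113 and 126 after LPS 3h, 20.9, 16.6 and 21.1 after LPS 24h and 61.8, 51.7 and 48.2 in the tolerized group, and there the LPS 24h cultures were the lowest and overlapped those of Unstim. The rise after LPS 3h was 6.55-fold in WT (log2 fold change 2.71, standard error 0.28, adjusted p = 3.08e-09) and 4.61-fold in Irg1-/- (log2 fold change 2.21, standard error 0.28, adjusted p = 1.38e-07). From LPS 3h to LPS 24h Irak2 fell 4.15-fold in WT (log2 fold change -2.05, standard error 0.27, adjusted p = 7.92e-07) and 6.59-fold in Irg1-/- (log2 fold change -2.72, standard error 0.28, adjusted p = 5.67e-09). Restimulation raised it 1.92-fold in WT (log2 fold change 0.94, standard error 0.27, adjusted p = 0.0380) and 2.76-fold in Irg1-/- (log2 fold change 1.46, standard error 0.27, adjusted p = 0.000545). It remained 2.15-fold and 2.39-fold below LPS 3h in the respective genotypes (adjusted p = 0.00235 and 0.000610). Within pools 1, 2 and 4 the WT restimulation difference was 1.04, 0.79 and 0.97 and the difference from LPS 3h was -0.75, -1.11 and -1.46. The WT restimulation call was lost without LPS 24h->LPS 3h culture 1 (0.83) or 3 (1.0) or LPS 24h culture 2 (0.94) or 3 (0.95), with no filter on low counts (0.94, adjusted p = 0.0891) and when fitted on those groups alone (0.94, adjusted p = 0.245). The other Irak2 calls held in every alternative and without any single culture.

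Myd88 and Irak2 rose together after LPS 3h and Ticam1 did not, so the promoter windows of these 3 genes are shown, each 300 bases long from 250 before to 50 after the RefSeq transcript start (GRCm38.p6). RefSeq windows were examined for 6 of the 10 members (Myd88, Tirap, Ticam1, Irak2, Irak4 and Traf6), with a second start for Tirap. Windows of the other members were not examined, and whether they hold any of the motifs below was not tested. Their absence here does not mean that they lack a RefSeq start. Capitals mark a match to the ISRE core GAAANNGAAA in Myd88 and to the NF-kB consensus in Ticam1, and the Irak2 window held neither.
Myd88 (chr9:119339969-119340268, minus strand): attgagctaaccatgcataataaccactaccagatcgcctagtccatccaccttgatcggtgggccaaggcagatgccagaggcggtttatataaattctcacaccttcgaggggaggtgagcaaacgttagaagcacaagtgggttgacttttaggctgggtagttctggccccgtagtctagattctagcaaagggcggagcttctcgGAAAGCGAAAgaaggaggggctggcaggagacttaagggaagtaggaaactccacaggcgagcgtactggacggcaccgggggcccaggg
Irak2 (chr6:113638217-113638516, plus strand): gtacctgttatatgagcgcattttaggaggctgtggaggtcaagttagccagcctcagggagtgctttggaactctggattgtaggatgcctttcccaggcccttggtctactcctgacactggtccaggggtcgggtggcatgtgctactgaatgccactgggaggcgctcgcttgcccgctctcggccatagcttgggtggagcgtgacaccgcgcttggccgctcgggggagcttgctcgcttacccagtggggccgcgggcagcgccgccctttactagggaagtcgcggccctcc
Ticam1 (chr17:56276718-56277017, minus strand): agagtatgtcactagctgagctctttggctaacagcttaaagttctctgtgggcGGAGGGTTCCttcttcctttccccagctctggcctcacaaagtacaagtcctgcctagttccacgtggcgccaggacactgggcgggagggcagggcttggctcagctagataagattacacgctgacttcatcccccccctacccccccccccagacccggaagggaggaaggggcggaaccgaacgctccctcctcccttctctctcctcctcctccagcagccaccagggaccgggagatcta
Both strands were searched for the NF-kB consensus, the ISRE core, the AP-1 site TGANTCA, the CRE TGACGTCA and the TATA box TATAAA. Of 32841 RefSeq promoter windows, 11.2% held the NF-kB consensus, 3.44% the ISRE core, 7.81% the AP-1 site, 1.79% the CRE and 13.6% the TATA box. Counted from the RefSeq start, the ISRE core of Myd88 began at position -40, with overlapping TATA box matches on opposite strands at -164 and -160, and the NF-kB match of Ticam1 began at -196. The windows of Tirap, Irak2, Irak4 and Traf6 held none of these 5 motifs. These are matches of letters only. GENCODE M21 extends Myd88 to 119341411, upstream of the RefSeq start used here.

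Tirap (ENSMUSG00000032041.15, chromosome 9, 35184551 to 35200291, minus strand) encodes the adaptor that brings MyD88 to TLR4 at the membrane. Its level ranged from 13.6 to 50.2 normalized CPM over the 24 libraries and the groups overlapped in most comparisons. Group means were 23.5 ± 2.20, 30.1 ± 6.84, 22.2 ± 1.84 and 30.2 ± 2.87 (SD, n = 3) in WT for Unstim., LPS 3h, LPS 24h and the tolerized group. The corresponding means in Irg1-/- cells were 18.5 ± 4.88, 29.5 ± 2.20, 28.2 ± 13.4 and 37.7 ± 10.8. None of the 10 treatment comparisons of Tirap passed the threshold. The 95% interval of its change after LPS 3h was -0.29 to 1.01 in WT and 0.012 to 1.32 in Irg1-/- on the log2 scale.

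Ticam2 (ENSMUSG00000056130.10, chromosome 18, 46557291 to 46574533, minus strand) encodes TRAM, the adaptor that links internalized TLR4 to TRIF. In contrast to Cd14, Myd88 and Irak2, it was highest in tolerized cells. Ticam2 was at 5.99, 9.55 and 9.61 in Unstim., 10.6, 10.8 and 9.41 after LPS 3h, 14.6, 31.6 and 20.5 after LPS 24h and 44.3, 28.1 and 54.5 in the tolerized group normalized CPM in WT cultures. In Irg1-/- cultures it was at 12.2, 11.1 and 15.8 in Unstim., 5.77, 7.30 and 8.79 after LPS 3h, 18.2, 17.6 and 16.7 after LPS 24h and 54.3, 66.2 and 56.4 in the tolerized group. The Irg1-/- groups did not overlap, rising in the order LPS 3h, Unstim., LPS 24h and tolerized, whereas in WT Unstim. overlapped LPS 3h and LPS 24h overlapped the tolerized cells. Tolerized cells held 4.12-fold more Ticam2 than non-tolerized cells in WT (log2 fold change 2.04, standard error 0.33, adjusted p = 2.28e-05) and 8.13-fold more in Irg1-/- (log2 fold change 3.02, standard error 0.34, adjusted p = 7.18e-08). Within pools 1, 2 and 4 this difference was 2.05, 1.37 and 2.51 in WT, and in pool 2 it was 3.20 in Irg1-/-. These calls held in every alternative and without any single culture. LPS 24h raised Ticam2 over Unstim. in WT (log2 fold change 1.41, standard error 0.32, adjusted p = 0.00180; 1.31 in pool 4), with 0.42 (standard error 0.32, adjusted p = 0.458) in Irg1-/-.

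Restimulation raised Ticam2 over LPS 24h 3.37-fold in Irg1-/- cells (log2 fold change 1.75, standard error 0.32, adjusted p = 0.000464; 1.79 in pool 1), and the WT value was 0.92 (standard error 0.31, adjusted p = 0.0989), with 1.59, -0.17 and 1.40 in pools 1, 2 and 4. From LPS 3h to LPS 24h Ticam2 rose by 1.12 (standard error 0.32, adjusted p = 0.00838) in WT and 1.27 (standard error 0.33, adjusted p = 0.00299) in Irg1-/-, the WT call being lost without LPS 24h culture 2 (0.72) or LPS 3h culture 3 (0.99). The lower level after LPS 3h than in Unstim. in Irg1-/- cells (log2 fold change -0.86, standard error 0.33, adjusted p = 0.0424) passed the threshold in 1 of 8 alternatives, and it was lost without LPS 3h culture 1 (-0.65), 2 (-0.80) or 3 (-0.96) or Unstim. culture 1 (-0.86), 2 (-0.90) or 3 (-0.64). Ticam2 shares 838 exonic bases with Tmed7 on the same strand, so reads from that stretch cannot be assigned to one gene with certainty. Tmed7 did not pass the threshold in any comparison. For tolerized against non-tolerized cells its log2 fold change was -0.089 in WT (adjusted p = 0.869) and 0.32 in Irg1-/- (adjusted p = 0.490).

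Ticam1 (ENSMUSG00000047123.8, chromosome 17, 56269319 to 56276786, minus strand) encodes TRIF, which TRAM recruits. In WT cultures Ticam1 was at 11.3, 6.78 and 7.85 in Unstim., 13.7, 8.06 and 5.43 after LPS 3h, 16.4, 21.7 and 10.7 after LPS 24h and 18.6, 27.3 and 14.3 in the tolerized group normalized CPM. In Irg1-/- cultures it was at 9.82, 8.29 and 7.49 in Unstim., 8.03, 8.73 and 4.57 after LPS 3h, 14.9, 9.11 and 9.30 after LPS 24h and 13.9, 17.8 and 18.8 in the tolerized group. Every tolerized culture was above every LPS 3h culture of its genotype, and Unstim. and LPS 3h overlapped in both. Tolerized cells held 2.23-fold more Ticam1 than non-tolerized cells in WT (log2 fold change 1.16, standard error 0.39, adjusted p = 0.0275) and 2.35-fold more in Irg1-/- (log2 fold change 1.23, standard error 0.39, adjusted p = 0.0182). Within pools 1, 2 and 4 the WT difference was 0.44, 1.74 and 1.37, and in pool 2 the Irg1-/- difference was 0.78. The WT call was lost without LPS 24h->LPS 3h culture 1 (1.16) or 2 (0.84) or LPS 3h culture 2 (1.03) or 3 (0.84), and when fitted on those groups alone (1.12, adjusted p = 0.0696). The Irg1-/- call was lost without LPS 24h->LPS 3h culture 3 (1.13) or 2 (1.17) or LPS 3h culture 3 (0.98), and with the pool as a term (1.01, adjusted p = 0.261). No other treatment comparison of Ticam1 passed.

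Irak4 (ENSMUSG00000059883.16, chromosome 15, 94543643 to 94581815, plus strand) encodes the first kinase of the MyD88 complex. In contrast to Irak2, it was lower after LPS 3h. Irak4 was at 129, 64.4 and 95 in Unstim., 31.9, 56.0 and 29.0 after LPS 3h, 84.5, 55.1 and 97.3 after LPS 24h and 35.6, 39.1 and 63.3 in the tolerized group normalized CPM in WT cultures. In Irg1-/- cultures it was at 69.7, 72.9 and 90.1 in Unstim., 26.3, 55.7 and 50.5 after LPS 3h, 91.4, 96.0 and 111 after LPS 24h and 61.5, 51.3 and 59.1 in the tolerized group. In both genotypes every LPS 3h culture was below every unstimulated one. Irak4 was 2.47-fold lower after LPS 3h in WT (log2 fold change -1.30, standard error 0.33, adjusted p = 0.00279; -1.67 in pool 4), and the Irg1-/- difference of -0.82 (standard error 0.33, adjusted p = 0.0529) missed the threshold. From LPS 3h to LPS 24h it rose 2.02-fold in WT (log2 fold change 1.02, standard error 0.33, adjusted p = 0.0185) and 2.26-fold in Irg1-/- (log2 fold change 1.18, standard error 0.33, adjusted p = 0.00633), with no difference from Unstim. past the threshold in either genotype. In pools 1, 2 and 4 the WT rise was 1.40, -0.021 and 1.74. It was lost in WT without LPS 24h culture 1 (0.93) or 3 (0.73) or LPS 3h culture 1 (0.82) or 3 (0.78) and in Irg1-/- without LPS 3h culture 1 (0.83). The Irg1-/- rise from LPS 3h to LPS 24h was, in the model with a pool term, 2.08, adjusted p = 0.00906. Restimulation moved Irak4 by -0.78 (standard error 0.33, adjusted p = 0.213) in WT and -0.80 (standard error 0.33, adjusted p = 0.197) in Irg1-/-, neither past the threshold. The 3' end of Irak4 shares 395 exonic bases with Twf1, which lies on the opposite strand, and since the strand setting of the counting is not given in the sources used here, reads there may count for either gene. Twf1 did not fall with Irak4: after LPS 3h its log2 fold change was 0.72 in WT (adjusted p = 0.118) and 1.41 in Irg1-/- (adjusted p = 0.00224).

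Traf6 (ENSMUSG00000027164.8, chromosome 2, 101678429 to 101701669, plus strand) encodes the ubiquitin ligase on which the MyD88 and TRIF arms converge. It ranged from 6.16 to 21.5 normalized CPM over the 24 libraries. Its means in WT were 12.7 ± 7.70, 11.4 ± 1.51, 13.3 ± 3.46 and 14.0 ± 5.78 (SD, n = 3) for Unstim., LPS 3h, LPS 24h and the tolerized group, and in Irg1-/- they were 10.0 ± 2.63, 14.5 ± 6.51, 8.06 ± 2.60 and 12.7 ± 1.30. No treatment comparison of Traf6 passed the threshold. The 95% interval of its change after LPS 3h was -1.0 to 0.68 in WT and -0.31 to 1.39 in Irg1-/- on the log2 scale. Of the other members, Myd88 shares 290 exonic bases with Acaa1a and Tirap shares 39 with Srpr, each on the opposite strand, and Acaa1a and Srpr did not pass the threshold after LPS 3h in either genotype. Tirap also shares 446 exonic bases with Gm39318 and Irak2 shares 196 with Gm43963. Both of these genes lie on the opposite strand and have no row among the deposited counts.

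The genotypes were compared within each treatment to ask whether loss of Irg1 changed the LPS-sensing machinery. With edgeR, 0 of 10 members passed in Unstim., LPS 3h, LPS 24h or tolerized cells, where 0.0421%, 0.00842%, 0.598% and 0.118% of all genes tested did. At an unadjusted p under 0.05 the counts were 0, 0, 2 and 1 of 10, beside 5.20%, 5.84%, 10.1% and 7.88% of all genes. DESeq2 called 0, 0, 1 and 0 members, beside 0.272%, 0.0674%, 2.70% and 0.948% of the genes it gave an adjusted p. The gene that DESeq2 called was Irak2 after LPS 24h, where all 3 Irg1-/- cultures (20.9, 16.6 and 21.1) were below all 3 WT cultures (40.2, 34.0 and 33.0). The log2 fold change was -0.87 (standard error 0.27, adjusted p = 0.157) with edgeR and -0.86, adjusted p = 0.0227 with DESeq2, and it was -1.04 in pool 1, which held 3 Irg1-/- libraries and 1 WT library. Tlr4 in tolerized cells was also lower in all 3 Irg1-/- cultures (11.9, 10.2 and 15.4) than in all WT cultures (27.2, 23.0 and 36.9), a difference on the log2 scale of -1.21 (standard error 0.37, adjusted p = 0.242), with -1.10 in pool 1 and -0.94 in pool 2. Ly96 after LPS 24h was higher in all Irg1-/- cultures (31.5, 33.4 and 23.6) than in WT (22.6, 18.8 and 6.78), by 0.88 (standard error 0.37, adjusted p = 0.391), and by 0.36 in pool 1. Groups without overlap were seen for 3 members in Unstim. (Ly96, Myd88 and Ticam2), 2 after LPS 3h (Cd14 and Ticam2), 2 after LPS 24h and 1 in tolerized cells, where 9.44%, 9.08%, 16.5% and 12.9% of all genes tested had none.

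**Figure D3:**
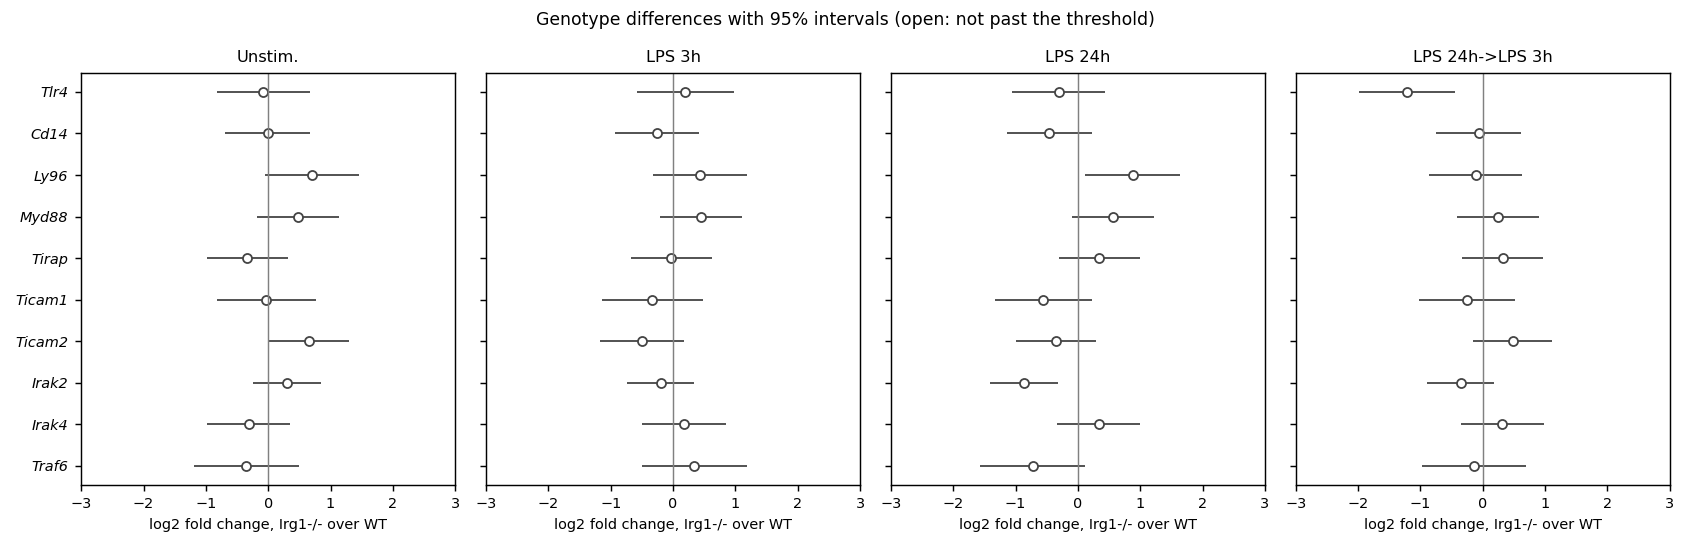
log2 fold change of Irg1-/- over WT (horizontal axis) with 95% intervals for the 10 members (rows) in each treatment (panels), fitted to 3 cultures per group; open circles mark values that did not pass the threshold. The intervals that leave 0 are those of Irak2 and Ly96 after LPS 24h and of Tlr4 in tolerized cells.

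Whether a treatment response differed between the genotypes was tested as an interaction in the same model. With edgeR, 0 of 10 members passed in any of the 5 interactions, where 0.00842% (LPS 3h against Unstim.), 0.210% (LPS 24h against Unstim.), 0% (LPS 24h against LPS 3h), 0.00842% (restimulation) and 0% (tolerized against non-tolerized) of all genes did. At an unadjusted p under 0.05 the counts were 1, 2, 0, 0 and 2 of 10, beside 5.68%, 8.14%, 6.47%, 8.66% and 7.23% of all genes. Among genes with an adjusted p from DESeq2, it called 0 members in each, beside 0.0337%, 0.848%, 0.109%, 0.604% and 0.286%. The response of Irak2 to LPS 24h was 0.66 in WT and -0.51 in Irg1-/-, a difference of -1.17 (standard error 0.38, adjusted p = 0.292). For Tlr4 the tolerized cells were 0.90 from the non-tolerized in WT and -0.52 in Irg1-/-, a difference of -1.41 (standard error 0.53, adjusted p = 0.535). The Ticam2 difference between tolerized and non-tolerized cells was larger in Irg1-/- by 0.98 (standard error 0.46, adjusted p = 0.659), and its response to LPS 3h differed by -1.15 (standard error 0.46, adjusted p = 0.788). The intervals of these interactions are wide: that of Irak2 ran from -1.95 to -0.40 and that of Tlr4 from -2.50 to -0.33. The calls reached in one genotype and not in the other, such as Irak4 after LPS 3h or Ly96 from LPS 3h to LPS 24h, are therefore not shown to differ between the genotypes.

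The genes around these 10 in the pathway were read from a list of 26, of which 25 could be tested and Sarm1 was at or near 0. Of these 25, 18 belong to the kinases, ubiquitin ligases and complexes downstream of the adaptors. After LPS 3h, 13 of 25 passed in WT, where 32.0% of all genes did, 11 of them higher (15.8% of all genes) and 2 lower (16.3%). In Irg1-/- cells 14 passed, where 35.9% of all genes did, 11 higher (17.0%) and 3 lower (18.9%). The list's median log2 fold change was 0.58 in WT and 0.53 in Irg1-/-, beside -0.18 and -0.20 over all genes. On the log2 scale, Peli1, a ubiquitin ligase of the IRAK complex, rose by 4.88 in WT cells and 4.77 in Irg1-/- cells. Irak3, the IRAK family member that restrains signalling, rose by 3.17 and 2.64. The TAK1-binding protein gene Tab2 rose by 2.74 and 2.49, and the MAP kinase kinase kinase gene Map3k8 by 2.60 and 3.25. On the TRIF side, Tank rose by 3.29 and 2.66, Ikbke by 1.79 and 1.92 and Tbk1 by 1.19 and 1.50. Ikbkb, a kinase of the IKK complex, rose by 1.43 and 1.93, and Pik3ap1, which links Toll-like receptors to PI3K, by 2.65 and 1.56. Tab1 fell by 2.50 and 2.12, and Cnpy3, a chaperone needed for Toll-like receptors to reach the surface, fell by 1.72 and 2.28.

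Some of these values moved with single cultures or with the pool. In WT cells after LPS 3h Pik3ap1 ranged from 386 to 2504 normalized CPM with a median of 947, and without LPS 3h culture 1 its log2 fold change was 1.75, adjusted p = 0.00377. In Irg1-/- cells the Pik3ap1 call was lost without Unstim. culture 1 (1.40, adjusted p = 0.0545). Ube2n also passed in WT, where 1 culture was at 81.8 normalized CPM and the other two at 8.35 and 9.11, and without that culture its value was 0.42, adjusted p = 0.671. The Cnpy3 call was lost in WT without LPS 3h culture 1 (-1.69) or 2 (-1.52), and the Tab1 call in Irg1-/- without LPS 3h culture 2 (-2.02) or 3 (-1.99) or Unstim. culture 1 (-1.53), with no filter on low counts (-2.12) and when fitted on those groups alone (-2.07). With the pool as a term, the Irg1-/- calls of Pik3ap1 (1.88), Tab1 (-2.94), Cnpy3 (-2.05) and Tbk1 (1.15) were lost, and Tab1 in WT was at -3.25.

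After LPS 24h, 9 of 25 differed from Unstim. in WT (16.2% of all genes), 8 of them higher (9.25%), and 5 in Irg1-/- (13.7%), all higher (7.31%). Irak3 was at 2.71 and 3.25, Pik3ap1 at 1.73 and 1.57 and Ikbke at 0.85 and 1.28 on the log2 scale in WT and Irg1-/-. Without LPS 24h culture 3 Irak3 in Irg1-/- was at 2.55 and still passed. The Pik3ap1 call was lost in WT without Unstim. culture 2 (1.62) and in Irg1-/- without LPS 24h culture 1 (1.33) or 3 (1.43) or Unstim. culture 1 (1.33) or 2 (1.65), or with the pool as a term (1.26). The WT Ikbke call was lost in 6 of 8 alternatives and 5 of 6 leave-one-out fits, at 0.58 without LPS 24h culture 1, 0.76 without LPS 24h culture 2 and 0.78, 0.78 and 0.91 without Unstim. culture 1, 2 and 3, and the Irg1-/- call with the pool as a term (0.59).

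From LPS 3h to LPS 24h, 12 of 25 changed in WT (32.3% of all genes), 10 of them lower (15.5%), and 7 in Irg1-/- (35.0%), 6 of them lower (16.9%). Restimulation over LPS 24h changed 1 gene of 25 in WT (3.99% of all genes) and 3 in Irg1-/- (5.14%). Peli1 was the one that rose in both, by 1.35 and 2.18, the WT call being lost when fitted on those groups alone (1.35, adjusted p = 0.115). Between tolerized and non-tolerized cells 9 of 25 differed in WT (25.5% of all genes), 2 higher (12.4%) and 7 lower (13.1%), and 7 in Irg1-/- (27.2%), 2 higher (13.1%) and 5 lower (14.1%). The median of the list was -0.47 and -0.042, beside 0.13 and 0.12 over all genes. Like Myd88 and Irak2, Peli1 was lower in tolerized cells, by 1.99 in WT and 1.90 in Irg1-/-. Map3k8 was lower by 2.78 and 2.43, Tab2 by 2.39 and 1.52, Ikbkb by 1.31 and 1.24 and Ly86, the MD-1 partner of the decoy receptor RP105, by 1.13 and 1.02. Cnpy3 was higher in both, by 2.02 and 1.94. The Ly86 call was lost in WT without LPS 3h culture 3 (-0.64) and in Irg1-/- without tolerized culture 2 (-1.07) or 3 (-0.95) or LPS 3h culture 2 (-0.84), and the Irg1-/- Cnpy3 call without LPS 3h culture 3 (1.70). With the pool as a term the Irg1-/- calls of Ly86 (-0.85) and Cnpy3 (1.42) were lost too. Between genotypes, Cnpy3 after LPS 24h was the only gene of the list to pass (2.49, adjusted p = 0.0284), and the Irg1-/- cultures ranged from 30.1 to 326 normalized CPM with a median of 31.3, so that 1 culture stood far above the others. Without it (culture 3) the value was 0.44, adjusted p = 0.921, and the call was also lost without WT LPS 24h culture 2 (2.58) or 3 (2.26), with the replicate number as a block (2.35), with the pool as a term (2.38) and when fitted on those groups alone (2.57). The Cnpy3 calls of Irg1-/- LPS 24h against Unstim. and of Irg1-/- restimulation, which the counts above include, were lost without that culture as well (0.35 and -0.66).

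**Figure D4:**
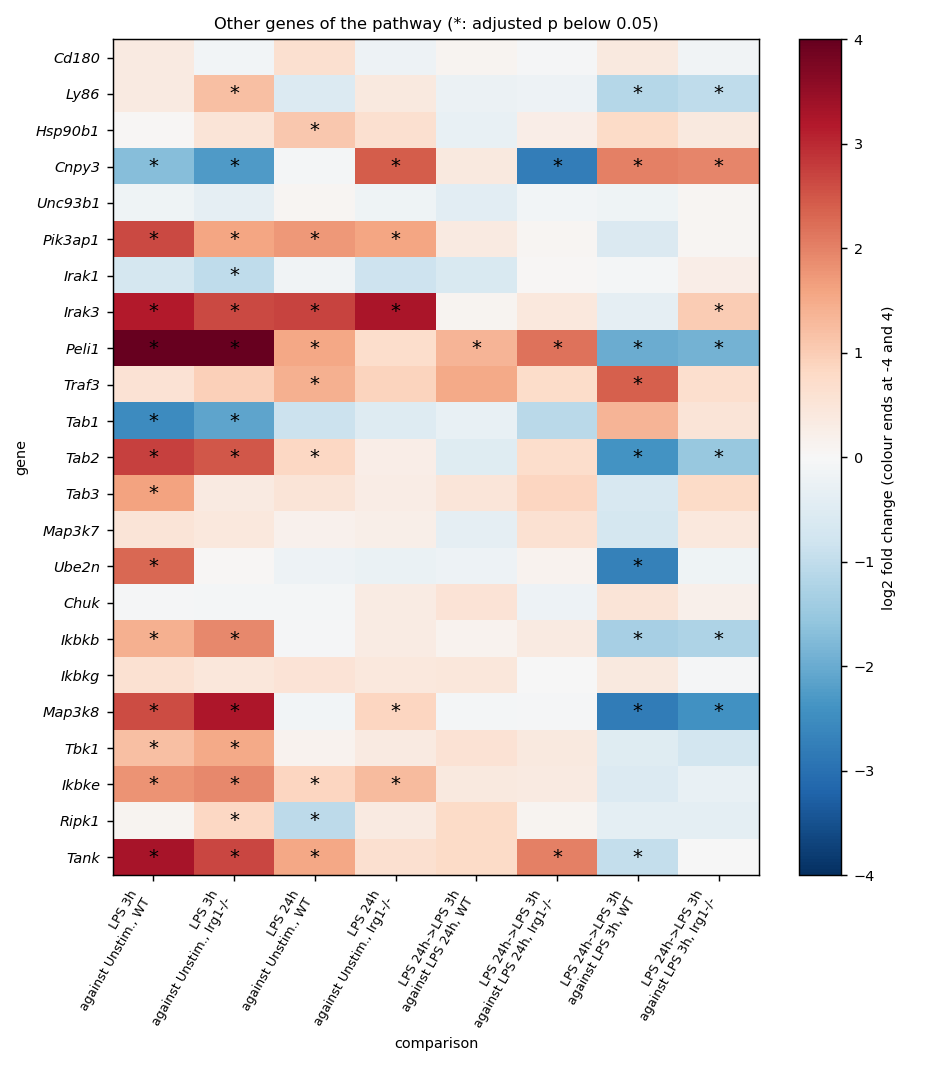
log2 fold change (colour, ends at -4 and 4) of other pathway genes (rows) in 8 treatment comparisons (columns), with a star where the adjusted p is below 0.05; Lbp and Ube2v1, with medians under 2 normalized CPM in every group, are left out. The stars of Peli1, Irak3, Tab2, Map3k8 and Tank after LPS 3h are red in both genotypes, and those of Peli1, Tab2, Ikbkb, Map3k8 and Ly86 for tolerized against non-tolerized cells are blue in both.

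The genes whose log2 CPM followed each member most closely over the 24 libraries are given as a description, by Pearson's r, with libraries of 8 groups and shared treatments as the points. Cd14 was followed by Ccl3 (0.973), Mt2 (0.967) and Ccl4 (0.966), of which Ccl3 and Ccl4 encode chemokines and Mt2 a metallothionein. Irak2 was followed by Maff (0.965), Plaur (0.962) and Rhou (0.961), and Myd88 by Icam1 (0.945), Gm49342 (0.938) and Helz2 (0.934). For Ticam2 the closest were Tbc1d2b (0.872), Sla (0.849) and Ppp1r12b (0.843), and for Ticam1 they were Acpp (0.865), Tubb4b (0.841) and Adam8 (0.833). For Irak4 the values were lower than for Cd14, Irak2 and Myd88, with Ufl1 (0.879), Rfc1 (0.876) and Xpc (0.875). Ly96, Tlr4, Tirap and Traf6 had looser neighbours, led by Armc5 (0.848), Mfsd12 (0.786), Prkar2b (0.770) and Naa30 (0.687).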

How the data were processed

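BMDM RNA was profiled in 24 libraries of 8 genotype and treatment groups, with 3 independent cultures each. Per the study's methods, cDNA was made with barcoded oligo-dT primers whose stated layout holds no molecular identifier, pooled, amplified and sequenced, and the authors used STAR and mm10 for alignment. They deposited whole-number counts per gene, not normalized. The counting program, its annotation, strand setting and test are not given in the sources used here. Of each column, 40.6% to 52.0% stood in 5 summary lines that name no gene, which were left out, and 6156 of 22165 genes had 0 counts throughout. No column was unused.

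Counts were tested with edgeR 4.0.16 (R 4.3.3, limma 3.58.1; TMM, filterByExpr, glmQLFit and glmQLFTest) in 1 model of the 8 groups, with Benjamini-Hochberg adjustment over 11878 genes and a threshold of 0.05. The 19 comparisons were 10 of treatments, 4 of genotypes and 5 interactions. Standard errors are the log2 fold change over the root of F, and log2 CPM used a prior count of 2. Within-pool values are differences of mean log2 CPM with no test. Alternatives were DESeq2 1.42.0 and its size factors, no filter, a mean of at least 10 counts, TMM without the 20 most counted genes, the replicate number as a block, the pool as a term, only the compared groups, and each culture left out in turn. The code was checked on simulated counts. Identical symbols were matched in GENCODE M21 (21745 genes named). The table holds other identifier versions for Cd14 and Ticam2 than GENCODE M21. Replicates correlated at r = 0.902 to 0.975 and none was a duplicate. The rule for named genes took all 10 members, pathway genes past the threshold in both genotypes or needed by a sentence, Acod1, and the 3 genes most correlated with each member. The members and lists were chosen with earlier results of these data known. Plots used Python 3.11.15, pandas 2.3.3 and matplotlib 3.10.9.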

Additional observations from a re-analysis of the deposited data

How the results depend on the processing

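Of the 40 member values past the threshold, 22 stayed past it in all 8 alternatives and without any single culture, and 0 reversed. Over all of them, 295 of 320 alternative values and 195 of 240 values without 1 culture stayed past it.

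The number of members called moved by over 1.5 times as follows. With the pool as a term it was 3 in place of 5 for Irg1-/- LPS 3h against Unstim., 0 in place of 1 for Irg1-/- LPS 24h against Unstim. and 2 in place of 5 for Irg1-/- tolerized against non-tolerized cells. In WT restimulation it was 4 with DESeq2 and 0 with only the compared groups, in place of 2, and DESeq2 called 1 genotype difference after LPS 24h in place of 0. With 1 culture left out it ranged from 3 to 5 for Irg1-/- LPS 3h against Unstim., 1 to 2 for WT and 0 to 2 for Irg1-/- LPS 24h against Unstim., 4 to 7 for WT LPS 24h against LPS 3h, 1 to 2 for WT restimulation, and 3 to 5 for tolerized against non-tolerized cells in either genotype. These fits have fewer samples or fewer residual degrees of freedom, and the cause of the other shifts was not tested.

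The replicate numbers were not taken as pairs: deviations of same-numbered cultures correlated at -0.11 to 0.34, with 0 of 28 group pairs over 0.1 throughout. Among the LPS 24h and tolerized groups of both genotypes, cultures numbered 3 correlated at 0.19 to 0.34. Culture 3 of Irg1-/- Unstim. correlated with each of these at 0.20 to 0.22. This check cannot tell whether cultures shared a donor or preparation. With the replicate number as a block, 5 members were called for WT LPS 3h against Unstim., as without it, and 1 call was lost, that of Tlr4 in WT LPS 24h against LPS 3h (0.96, adjusted p = 0.0525).

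Counts over all genes also depended on the analysis. For the genotype difference after LPS 24h, 71 genes passed, against 215 with DESeq2, 246 with no filter, 12 with the pool as a term and 3 with only the compared groups. In tolerized cells 14 passed, against 106, 133, 6 and 4. In Unstim. 5 passed, against 31 with DESeq2, 39 with no filter, 3 with the block and 0 with only those groups, and after LPS 3h 1 passed, against 8, 32 and, with the pool, 3. WT restimulation gave 474, against 766, 749 and 109 (only those groups), and Irg1-/- restimulation 611, against 1080 with only those groups. With the pool as a term the Irg1-/- counts fell from 4260 to 2361 (LPS 3h against Unstim.), from 4162 to 1771 (LPS 24h against LPS 3h) and from 3233 to 1407 (tolerized against non-tolerized).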
